A study of Mus musculus with 6 samples.

Results

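Control neurospheres grown from the hippocampus of newborn mice were profiled by bulk RNA sequencing in 3 libraries, CTRL 1, CTRL 2 and CTRL 3, out of 6 libraries in the series, and every library labelled CTRL was taken. The mice were C57BL/6 at postnatal day 0. They carried hGFAPCre, a Cre recombinase driven by the human GFAP promoter, together with an intact Fgf13 gene on their single X chromosome, labelled Fgf13+/y. All of the libraries therefore come from cells that carry a Cre transgene, and no Cre-free library was analysed here. Cells of 1 mouse went into 2 wells of a 12-well plate, in DMEM/F12 medium with B27, FGF-2 and EGF (20 ng/ml each), with part of the medium renewed every other day, and spheres were collected on day 7. The labels do not say whether each library came from a separate mouse or culture, so the SD below measures the spread between these libraries, which may be technical.

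Neurospheres are floating clusters that form when neural stem and progenitor cells divide in medium with FGF-2 and EGF. A sphere holds a mixture of stem-like cells, dividing progenitors and cells that have begun to become astrocytes, oligodendrocyte progenitors or neurons. Progenitors from different brain regions tend to keep transcription factors of their region of origin in culture. In a bulk library, fewer cells of a type and less RNA per cell cannot be told apart.

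Levels between genes are given in TPM, the normalized count divided by the gene's exon length and scaled to a fixed sum of 1000000 over all genes of a library. Values listed as 3 numbers are in the order CTRL 1, CTRL 2 and CTRL 3, and a mean is given ± SD over the 3 libraries (n = 3). Reads assigned to genes came to 24112509, 24261454 and 22191718. Of 21982 nuclear protein-coding genes, 12502 (56.9%) reached 1 TPM in all 3 libraries, 8730 reached 10 TPM, 1267 reached 100 TPM and 84 reached 1000 TPM. No read was found in any library for 4882 of them. The median over all nuclear protein-coding genes was 4.62 TPM.

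CTRL 3 stood apart from the others. Across 13807 nuclear protein-coding genes with a mean of at least 10 normalized counts, the median coefficient of variation was 5.98% between CTRL 1 and CTRL 2, and 21.5% and 21.9% between CTRL 3 and each of them. The relative SD expected from counting alone, the inverse square root of a gene's mean reads, had a median of 3.74%. It is not a coefficient of variation between 2 libraries, so it serves only as a scale. Mitochondrially encoded genes took 1.48%, 1.46% and 4.14% of reads, and genes with a ribosomal protein symbol 4.70%, 4.81% and 8.25%. Symbols alone were used, so kinase genes with such symbols are included. Each library was then treated alike and asked which of 16858 genes lay at least 2-fold above, or below, both other libraries in normalized counts. CTRL 1 lay above for 37 genes (0.219%) and below for 180 (1.07%), and CTRL 2 lay above for 34 (0.202%) and below for 283 (1.68%). CTRL 3 lay above for 1406 (8.34%) and below for 781 (4.63%). The 16858 genes are of every type, 13807 of them nuclear protein-coding. Over protein-coding genes alone, the CTRL 3 share above was lower and the directions were closer to even. The shares over all genes, used as background below, therefore mix gene types. With a mean of at least 50 normalized counts the CTRL 3 numbers were 570 above and 583 below. In CPM (reads scaled only to the library total) they were 1763 and 571. The balance of the directions thus depended on the gene type, the filter and the scaling. What sets CTRL 3 apart was not tested, and with 1 library on one side these counts carry no test. Genes named for a difference in CTRL 3 are therefore given by library, and Gfap and Nes also without CTRL 3, while a mean ± SD alone includes that library. Exons of 192 of the 584 listed genes overlap those of another annotated gene. The kit does not mark strand, so the levels of such genes are uncertain by the reads of their neighbour. Among the genes named below this holds for Ccnd1, Ccnd2, Cdk4, Olig1, Sox4, Sox8, Emx2, Nr2f1, Prox1, Fgfr1, Fgfr3, Ddr1, Notch1, Gapdh, Hif1a, Ndrg1, Malat1 and others.

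The 7 marker genes of the culture covered a range of more than 2 orders of magnitude. Positions are those of GENCODE on GRCm38, and each is the whole gene with its exons, introns and UTRs. Vegfa, the secreted growth factor that acts on blood vessels (ENSMUSG00000023951, chr17:46016993-46032369, minus strand), stood highest with 2634, 2397 and 1998 TPM (mean 2343 ± 322, SD, n = 3), rank 29 of the 21982 genes. It was high in all 3 libraries, and its lowest library lay above the highest library of every other marker. Olig2, a transcription factor of oligodendrocyte and ventral progenitors (ENSMUSG00000039830, chr16:91225457-91228677, plus strand), was measured at 1321, 1379 and 574 TPM (mean 1092 ± 449, rank 109). Sox2, which maintains neural stem cells (ENSMUSG00000074637, chr3:34650405-34652461, plus strand), was measured at 861, 770 and 800 TPM (mean 810 ± 46.2, rank 143). Olig2 was low in CTRL 3 and its range overlapped that of Sox2, whereas Sox2 was nearly level across libraries.

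Gfap, the intermediate filament of astrocytes and adult stem cells (ENSMUSG00000020932, chr11:102887336-102900912, minus strand), was measured at 221, 132 and 883 TPM (mean 412 ± 410, and 177 without CTRL 3). Nes, the nestin filament of neural progenitors (ENSMUSG00000004891, chr3:87971078-87980451, plus strand), had the opposite order with 390, 441 and 90.3 TPM (mean 307 ± 189, and 415 without CTRL 3). Gfap was high and Nes low in CTRL 3, so the order of these genes turned with the library: Nes stood above Gfap in CTRL 1 and CTRL 2, and Gfap above Nes in CTRL 3. Mki67, a protein of dividing cells (ENSMUSG00000031004, chr7:135689784-135716361, minus strand), was measured at 193, 213 and 109 TPM (mean 172 ± 55.3, rank 891). Dcx, a microtubule protein of young neurons (ENSMUSG00000031285, chrX:143855842-143933311, minus strand), was measured at 17.7, 21.3 and 18.2 TPM (mean 19.1 ± 1.97, rank 7410). Dcx lay below the lowest library of every other marker.

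**Figure D1:**
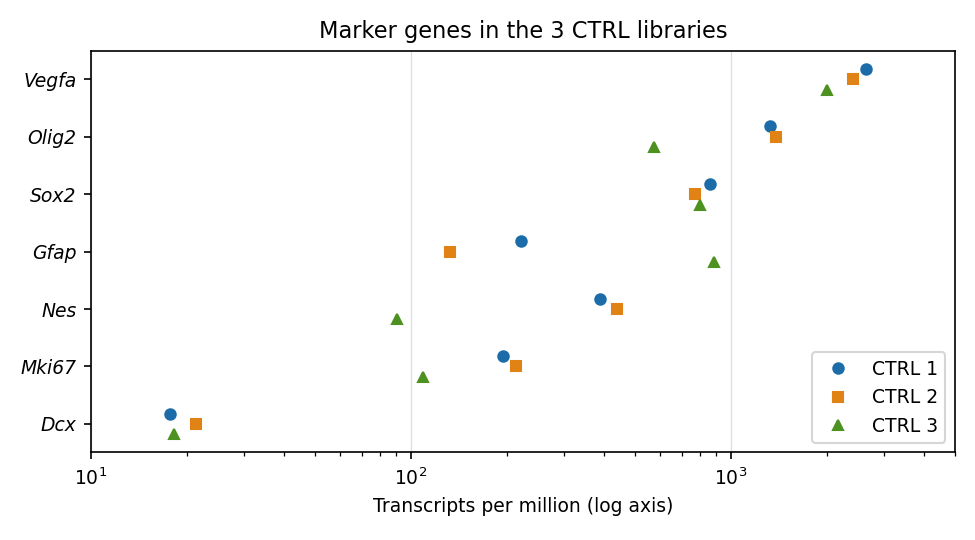
Level of the 7 marker genes in TPM (log axis) in each of the 3 CTRL libraries, with 1 point per library. Vegfa lies highest at 1998 to 2634 TPM, Dcx lowest at 17.7 to 21.3 TPM, and Gfap and Nes change places in CTRL 3.

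The most abundant nuclear protein-coding genes, leaving out ribosomal protein genes, were housekeeping, glial and metabolic genes. Eef1a1, a translation elongation factor, led with a mean of 9582 ± 355 TPM, followed by Ckb, the brain creatine kinase, with 4966 ± 1285 TPM, and Fabp7, the fatty acid binding protein of radial glia, with 4319 ± 1637 TPM. Tmsb4x, which binds actin monomers, reached 4007 ± 1910 TPM and Igfbp2, a secreted binder of insulin-like growth factors, 3873 ± 850 TPM. Ckb was lowest in CTRL 3, with 5864, 5541 and 3494 TPM, and Tmsb4x highest, with 2893, 2917 and 6212 TPM. The leading 20 also held Scd2, a fatty acid desaturase, the glycolytic enzymes Pgk1, Gapdh and Ldha, the tubulin Tubb2b, Olig1 and Vegfa. Eef2, Cox6a1, Txn1, Selenow, Hsp90ab1, Ptms, Cfl1 and Ptma made up the rest. Several of these, among them Eef1a1, Gapdh, Tmsb4x, Ptma and Cfl1, have processed copies elsewhere in the genome that share sequence, so their reads could be split and their levels are uncertain by that amount.

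**Figure D2:**
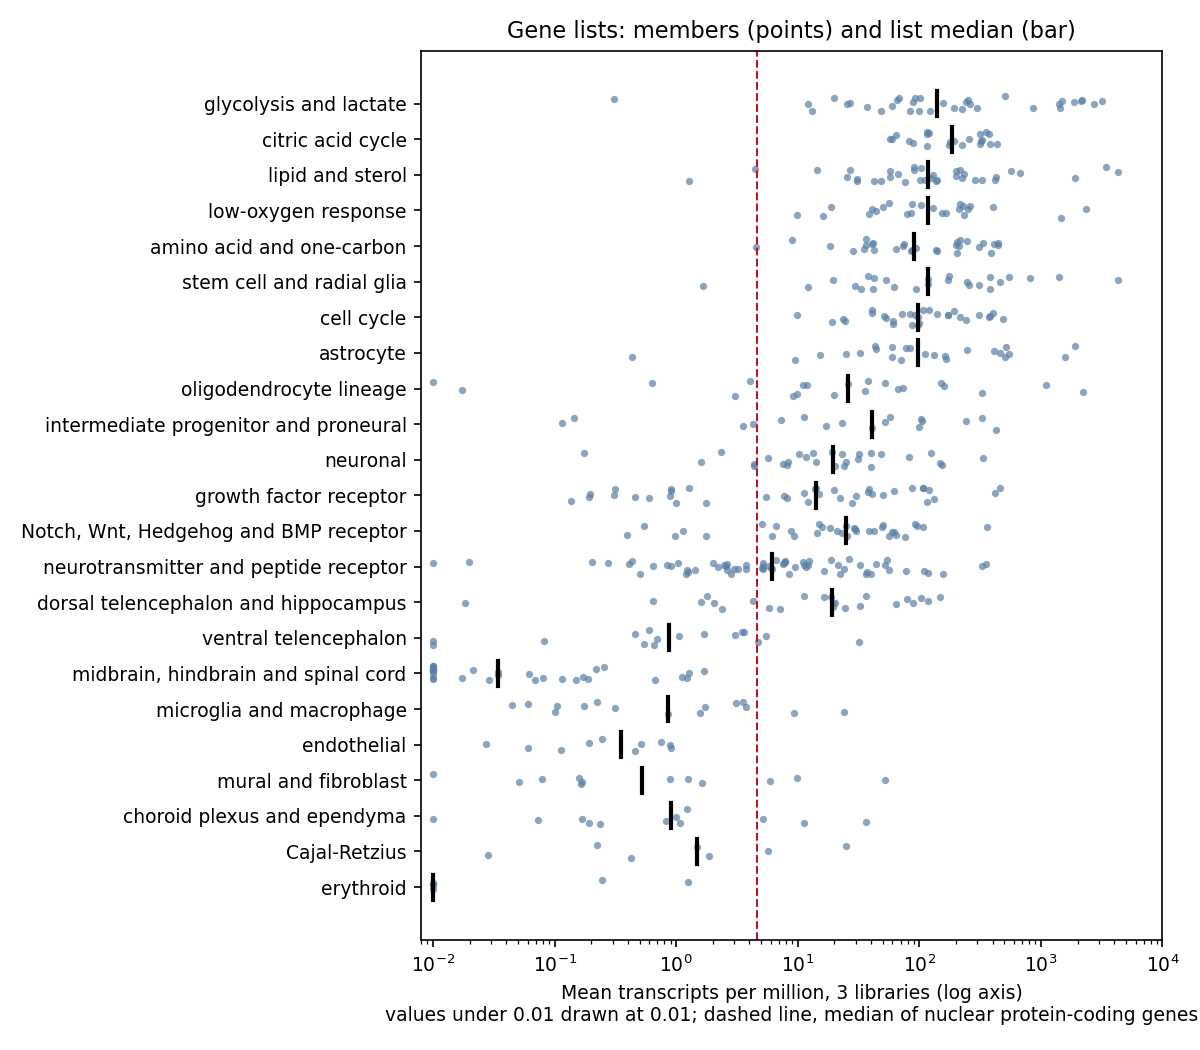
Mean TPM over the 3 CTRL libraries (log axis) for the members of each gene list, 1 point per gene, with the median of each list. The dashed line marks the median of all nuclear protein-coding genes, 4.62 TPM. Stem cell, cell cycle, astrocyte and metabolic lists lie above it, and lists of midbrain, hindbrain and spinal cord, blood and vessel genes lie below it.

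Genes of stem cells and radial glia were broadly abundant. Of 25 listed, 24 reached 1 TPM in all 3 libraries, 23 reached 10 TPM and 10 reached 100 TPM. The list median, taken over the gene means, was 118 TPM. It lay above the median of each library, 99.2, 94.7 and 90.3 TPM, and was 96.9 TPM without CTRL 3. Fabp7 stood at 3137, 3633 and 6188 TPM, and the filament gene Vim at 1656, 1709 and 834 TPM. Fabp7 was highest and Vim lowest in CTRL 3. Slc1a3, the glutamate transporter of radial glia and astrocytes, averaged 547 ± 39.0 TPM, and Ptprz1, a receptor phosphatase of progenitors, 462 ± 98.7 TPM. Among the SoxB1 factors, which act early in neural identity, Sox2 stood 3.27 times as high as Sox3, and Sox3 8.44 times as high as Sox1, with no overlap between neighbours over the libraries. Pax6, a factor of cortical progenitors, averaged 19.5 ± 3.56 TPM, Prom1, a surface protein used to sort stem cells, 12.1 ± 2.74 TPM, and Fut4, which makes a stem cell surface sugar, 1.65 ± 0.804 TPM. In CTRL 3, 3 of the 25 genes, Hopx, Id1 and Id3, lay at least 2-fold above both other libraries, against 8.34% of all genes compared, and 4, Nes, Tnc, Hes1 and Fut4, at least 2-fold below, against 4.63%. Id1, an inhibitor of differentiation factors that responds to BMP, was measured at 75.9, 64.6 and 374 TPM.

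All of the 30 cell cycle genes reached 1 TPM in every library, and the list median was 96.8 TPM. Ccnd1, a cyclin that drives entry into the cycle, stood highest with 617, 742 and 94.3 TPM, and Ccnd2 followed with 381, 412 and 128 TPM. The ranges of the 2 cyclins overlapped, and in CTRL 3 Ccnd2 was the higher of the pair. Pcna, the sliding clamp of replication, averaged 404 ± 88.2 TPM, and Cdk4, the kinase partner of the D cyclins, 384 ± 73.0 TPM. Cdkn1a, an inhibitor of cyclin-dependent kinases, averaged 373 ± 128 TPM. The list median was 114, 123 and 51.0 TPM by library, and 10 of the 30 genes lay at least 2-fold below both others in CTRL 3, against 4.63% of all genes compared, while 0 lay above. The 10 were Aurka, Ccnd1, Ccnd2, Ccne1, Cdkn2a, Mcm2, Mcm3, Mcm4, Mcm5 and Plk1, which include 4 subunits of the replicative helicase. Among other genes of mitosis the distance varied: Cdk1, the kinase of mitotic entry, was measured at 88.6, 98.0 and 89.7 TPM, and Aurkb, a kinase of chromosome segregation, at 112, 118 and 59.7 TPM. Cdk1 was level, while Aurkb was lower in CTRL 3 without reaching 2-fold in normalized counts.

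Astrocyte genes had a list median of 97.2 TPM, and 23 of 24 reached 1 TPM in all libraries. Apoe, the lipid carrier, stood at 1318, 985 and 3369 TPM and Cst3, a secreted protease inhibitor, at 897, 779 and 3091 TPM. Both were highest in CTRL 3. Sparcl1, a matrix protein that astrocytes secrete, followed with 379, 385 and 884 TPM. In CTRL 3, 8 of the 23 with enough reads lay at least 2-fold above both other libraries, namely Apoe, Aqp4, Cst3, Gfap, Id4, Ntsr2, S100b and Sparcl1, against 8.34% of all genes compared, and 0 lay below. Aqp4, the water channel of astrocyte endfeet, was measured at 24.6, 13.2 and 142 TPM. Other astrocyte genes differed less. Mlc1 was measured at 530, 495 and 527 TPM and was nearly level. Atp1b2, a sodium pump subunit, was measured at 465, 370 and 539 TPM, and Slc1a2, the main glutamate transporter, at 113, 95.3 and 123 TPM. Atp1b2 and Slc1a2 were also highest in CTRL 3, by less than 2-fold. Gjb6, the connexin 30 gene, was under 1 TPM in every library. Among the NFI factors, which promote gliogenesis, Nfix stood 2.10 times as high as Nfib, and Nfib 1.80 times as high as Nfia, without overlap.

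The oligodendrocyte lineage was represented mainly by its early factors. Olig1 was measured at 2697, 2543 and 1398 TPM, above Olig2 in each library by 2.03 times on the means, and Sox8 at 321, 287 and 376 TPM. Sox10, which acts from the progenitor stage on, averaged 152 ± 67.0 TPM, and Pdgfra, the PDGF receptor of oligodendrocyte progenitors, 38.0 ± 2.53 TPM. Genes of myelin differed in level. Cnp, a myelin enzyme that is already made in progenitors, was measured at 134, 104 and 243 TPM, and Mbp, myelin basic protein, at 4.87, 4.68 and 20.2 TPM. Mobp and Opalin, of mature myelin, were at or near 0. In CTRL 3, 8 of the 19 genes with enough reads lay at least 2-fold above both others, again against 8.34%. Among them were Bcas1, Cldn11, Enpp6, Gpr17, Mag, Mbp and Myrf. Olig2 and Cspg4 lay at least 2-fold below, against 4.63% of all genes compared. Gpr17, a receptor of cells committed to differentiate, was measured at 47.2, 36.0 and 116 TPM.

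Neurogenic factors were present at intermediate levels. Of 17 listed genes, 14 reached 1 TPM in all libraries and the median was 40.8 TPM, or 25.1 TPM without CTRL 3. Sox4 averaged 428 ± 90.7 TPM and Hes6 329 ± 42.4 TPM. Hes6, which opposes Hes1, was measured at 329, 286 and 371 TPM, with no library standing apart. Neurog2, the proneural factor of cortical excitatory lineages, was measured at 22.3, 12.8 and 87.4 TPM, and Eomes, of intermediate progenitors, at 0.479, 0.689 and 9.54 TPM. Both lay at least 2-fold above the other libraries in CTRL 3. Neurog1 and Neurod4 were under 1 TPM in every library.

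Neuronal genes had a lower list median, 19.7 TPM, though 27 of 28 reached 1 TPM in all libraries. The highest were Gap43, a growth cone protein, with 356, 460 and 191 TPM, Tubb3, a neuronal tubulin, with 159, 194 and 112 TPM, and Thy1 with 157, 141 and 141 TPM. Some markers of more mature neurons were lower. Rbfox3, the NeuN antigen, averaged 7.54 ± 1.13 TPM, Slc17a7, a vesicular glutamate transporter, 8.39 ± 2.08 TPM, and Gad1, which makes GABA, 8.08 ± 0.571 TPM. Prox1, a factor of dentate granule neurons, was measured at 22.7, 20.6 and 17.6 TPM. No neuronal gene lay at least 2-fold above or below both others in any library, out of 27 with enough reads. Over all genes compared, 8.34% lay above and 4.63% below in CTRL 3.

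Among the regional genes listed, those of the dorsal forebrain were the most often detected. Of 24 dorsal telencephalon and hippocampus genes, 22 reached 1 TPM in all libraries, against 7 of 16 ventral telencephalon genes and 1 of 30 midbrain, hindbrain and spinal cord genes. Emx2, of the dorsal and caudal cortex, was measured at 83.1, 77.7 and 77.1 TPM, and Lhx2, which is needed for hippocampal and cortical fate, at 130, 112 and 111 TPM. These genes hardly differed between libraries. Nr2f1, Lhx2 and Tcf4 were the highest of the list with means of 147 ± 20.1, 118 ± 10.5 and 103 ± 11.1 TPM. Emx2 stood 4.25 times as high as Emx1. Zbtb20, which specifies hippocampal CA1 fields, averaged 36.2 ± 4.08 TPM. Wnt3a and Wnt8b, signals of the cortical hem and its neighbourhood, averaged 0.0182 ± 0.0315 and 1.79 ± 0.569 TPM.

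On the ventral side Sp8 and Gsx2, factors of the lateral ganglionic eminence, averaged 5.48 ± 0.430 and 4.71 ± 0.552 TPM. Nkx2-1, the factor of the medial ganglionic eminence, was measured at 0.485, 0.477 and 0.844 TPM, and Lhx8 and Isl1 had no read. Olig2, high as it was, is not among these ventral genes here because it also marks glial progenitors. Lhx2, which is on the stem cell list too, was kept in the dorsal list. The regional lists were therefore not built alike, and their shares depend on that choice. Of the posterior genes, Otx2, of forebrain and midbrain, was the only one at 1 TPM in all libraries, with 1.23, 1.39 and 1.07 TPM. Irx3 and Irx5 were the highest on the means, at 1.70 ± 0.789 and 1.27 ± 0.663 TPM, and both were lowest in CTRL 3. Of the list, 11 of the 30 had no read in any library, among them Hoxa5, Hoxb2, Hoxb3, Hoxb4, Hoxb5, Hoxc4, Hoxd3, Pax3, Foxa2 and Lmx1b. A count of 0 allows up to 3 reads, which is at most 0.245 TPM for any of these genes.

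**Figure D3:**
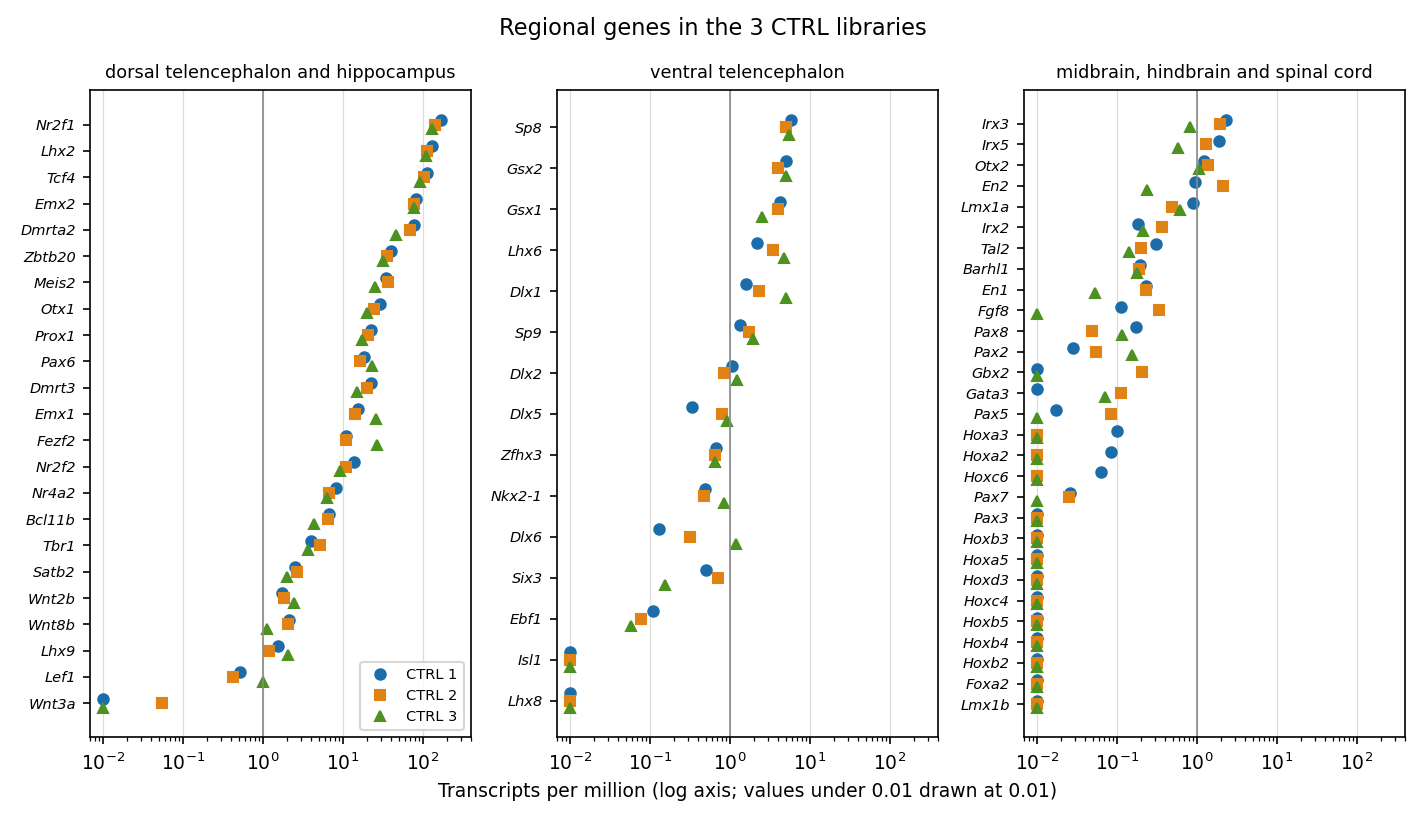
TPM in each CTRL library (log axis, values under 0.01 drawn at 0.01, line at 1 TPM) for factors of the dorsal telencephalon and hippocampus, the ventral telencephalon, and the midbrain, hindbrain and spinal cord, 1 symbol per library, leaving out genes not reported here. The dorsal list has a median of 19.04 TPM, the ventral list 0.87 TPM and the posterior list 0.03 TPM, over all members.

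Receptors for the growth factors supplied in the medium were well represented. Fgfr3 was measured at 152, 142 and 104 TPM and Fgfr1 at 134, 124 and 88.5 TPM, with overlapping ranges, and Fgfr1 stood 10.3 times as high as Fgfr2. Fgfr4 was the lowest of the family. Egfr, which binds EGF, was measured at 107, 104 and 48.9 TPM and stood 6.22 times as high as Erbb2. It was lowest in CTRL 3. Ddr1, a collagen receptor, and Ptprz1 led the list with means of 420 ± 98.2 and 462 ± 98.7 TPM. Ntrk2, the receptor of the neurotrophin BDNF, averaged 108 ± 6.46 TPM and stood 7.24 times as high as Ntrk3. In all, 27 of 38 growth factor receptors reached 1 TPM in all libraries.

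Among receptors of Notch, Wnt, Hedgehog and BMP signals, 30 of 34 reached 1 TPM in all libraries, with a median of 25.1 TPM. The Wnt receptor Fzd9 stood highest with 432, 390 and 255 TPM and was 5.60 times as high as Fzd2. Smo, the signal transducer of Hedgehog, averaged 107 ± 16.5 TPM and Bmpr1a, a BMP receptor, 96.1 ± 17.5 TPM. Notch1 averaged 91.4 ± 19.5 TPM and Notch3 62.2 ± 16.3 TPM, with overlapping ranges, and Notch2 15.8 ± 0.829 TPM.

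Neurotransmitter and peptide receptors had a median of 6.15 TPM, with 52 of 65 at 1 TPM in all libraries. Adgrg1, an adhesion receptor of progenitors, averaged 353 ± 92.1 TPM and Ednrb, the endothelin B receptor of glia, 327 ± 151 TPM. Ednrb was measured at 255, 226 and 500 TPM and was at least 2-fold above both other libraries in CTRL 3, in normalized counts. Grik5, a kainate receptor subunit, averaged 158 ± 18 TPM. The AMPA receptor subunit Gria2 averaged 118 ± 15.6 TPM and stood 4.89 times as high as Gria3. The metabotropic glutamate receptor Grm5 was measured at 88.2, 90.1 and 56.4 TPM.

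**Figure D4:**
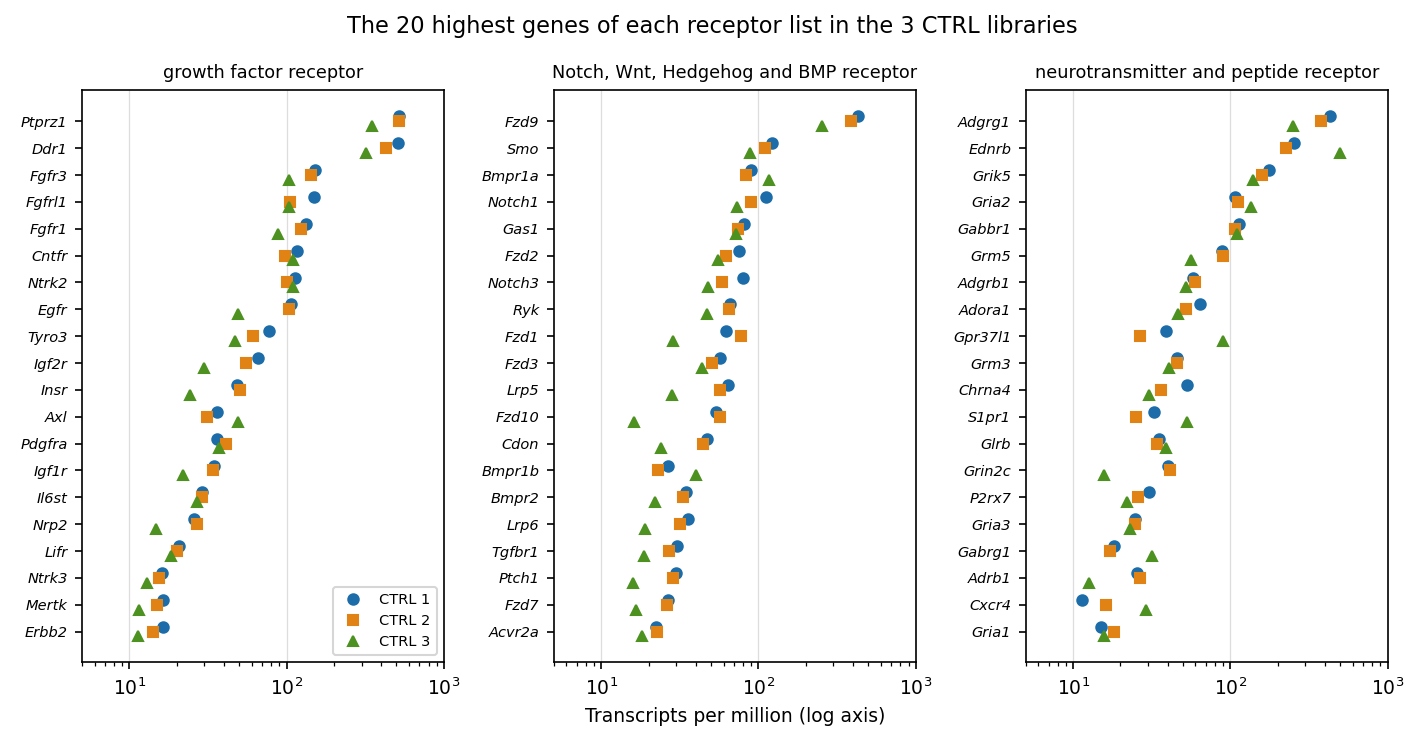
Level in TPM (log axis) of the 20 highest genes of each of the 3 receptor lists, with 1 symbol per CTRL library. Ptprz1, Ddr1, Fzd9, Adgrg1 and Ednrb lie above 300 TPM on the means.

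Metabolic genes were among the most abundant. Of the glycolysis list, 33 of 34 genes reached 1 TPM in all libraries, 15 reached 100 TPM and the median was 140 TPM. Pgk1, phosphoglycerate kinase, was measured at 3288, 3084 and 3155 TPM, Gapdh at 3263, 3190 and 1732 TPM, and Ldha, which makes lactate, at 2397, 2416 and 1687 TPM. Pgk1 was level across libraries, while Gapdh and Ldha were lowest in CTRL 3. Ldha stood 7.28 times as high as Ldhb, and Eno1, the ubiquitous enolase, 78.8 times as high as Eno2, the neuronal enolase. In CTRL 3, 7 of 33 genes lay at least 2-fold below both others, against 4.63% of all genes compared, among them the glucose transporters Slc2a1 and Slc2a3 and the hexokinases Hk1 and Hk2. The citric acid cycle list had a median of 186 TPM, all 22 of its genes reached 10 TPM in every library, and 0 lay 2-fold apart in any library, against 13.0% of all genes compared for CTRL 3 in either direction. Its highest members were Sdhd, Mdh1 and Sdha with means of 439 ± 40.3, 381 ± 65.9 and 373 ± 79.5 TPM.

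Lipid and sterol genes had a median of 118 TPM, at 146, 159 and 69.0 TPM by library. Scd2 was measured at 4291, 4270 and 1667 TPM. In CTRL 3, 17 of 36 genes lay at least 2-fold below both others (background 4.63%) and 2, Abca1 and Apoe, lay above. Hmgcs1, an early enzyme of cholesterol synthesis, was measured at 504, 608 and 164 TPM, and Sqle, which oxidizes squalene, at 170, 197 and 43.0 TPM. Both were high in CTRL 1 and CTRL 2 and low in CTRL 3. Lss and Dhcr7, further enzymes of that pathway, were also among the 17.

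Amino acid and one-carbon genes all reached 1 TPM in every library. The transporter subunit Slc7a5 averaged 443 ± 144 TPM, and Psat1 and Phgdh, which make serine, 440 ± 68.1 and 413 ± 22.9 TPM. Phgdh was measured at 426, 426 and 386 TPM.

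The low-oxygen response list holds genes known to rise when oxygen falls, together with the factors and enzymes that sense it. All of its 24 members reached 1 TPM in every library and the median was 117 TPM. Ddit4, a stress-induced inhibitor of mTORC1, was measured at 1782, 1623 and 976 TPM, next to Vegfa, and Ero1l, an oxidase of the endoplasmic reticulum, at 508, 572 and 132 TPM. These genes were lowest in CTRL 3. Car9, a carbonic anhydrase, was measured at 204, 178 and 76.0 TPM, while Hif1a, the oxygen-regulated factor itself, was nearly level with 59.1, 59.5 and 49.9 TPM. In CTRL 3, 9 of 24 lay at least 2-fold below both others, against 4.63% of all genes compared, and 0 above. Ndrg1 was the most different, with 2549, 2978 and 317 normalized counts.

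Hypoxia-inducible factors bind DNA at a short core, ACGTG. The promoters of Pgk1 and Ldha, of the glycolysis list, and of Bnip3, of the low-oxygen list, are shown because they hold it. Each is a window from 250 bases before to 50 bases after a start of the gene in RefSeq (GRCm38.p6), 5′ to 3′ on the gene's strand. ACGTG on either strand is in capitals, and a CACGTG run is counted on both strands. Ldha has 2 windows, and only that with the most matches is shown. It lies inside the Ldha gene as GENCODE places it, chr7:46841475-46855627. The windows are Pgk1 at chrX:106186850-106187149 (plus strand, 2 matches), Ldha at chr7:46845554-46845853 (plus strand, 5 matches) and Bnip3, a mitophagy receptor, at chr7:138909457-138909756 (minus strand, 2 matches).
Pgk1: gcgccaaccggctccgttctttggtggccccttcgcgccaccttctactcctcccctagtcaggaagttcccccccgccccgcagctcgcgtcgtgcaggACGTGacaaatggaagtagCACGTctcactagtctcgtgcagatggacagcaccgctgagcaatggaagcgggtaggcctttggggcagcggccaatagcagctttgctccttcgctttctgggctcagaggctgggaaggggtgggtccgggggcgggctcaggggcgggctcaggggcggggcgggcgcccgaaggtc
Ldha: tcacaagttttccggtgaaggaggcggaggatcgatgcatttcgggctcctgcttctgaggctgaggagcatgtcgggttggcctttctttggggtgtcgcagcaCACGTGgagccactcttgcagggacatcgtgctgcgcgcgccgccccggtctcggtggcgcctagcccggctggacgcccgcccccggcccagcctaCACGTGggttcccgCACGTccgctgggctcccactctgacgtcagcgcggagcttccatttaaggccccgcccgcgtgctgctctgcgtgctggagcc
Bnip3: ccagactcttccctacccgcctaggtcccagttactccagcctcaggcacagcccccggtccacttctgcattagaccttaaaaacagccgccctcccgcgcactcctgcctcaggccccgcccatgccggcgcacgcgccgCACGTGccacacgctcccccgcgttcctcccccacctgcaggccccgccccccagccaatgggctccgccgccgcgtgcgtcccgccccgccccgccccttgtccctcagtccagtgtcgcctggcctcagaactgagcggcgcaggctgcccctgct
A gene was counted where any of its windows held ACGTG, and listed genes without a window were left out. ACGTG was found for 15 of 20 genes of the low-oxygen list (75%), 17 of 33 of the glycolysis list (51.5%) and 0 of 17 of the interferon list. The low-oxygen list was chosen for genes known to rise when oxygen falls, so its share follows in part from that choice. Over 27025 genes the share was 21.8%. Lists chosen for other functions also held it above that share, with 6 of 13 promoters of the ventral telencephalon list (46.2%), 3 of 7 of the choroid plexus and ependyma list and 9 of 23 of the cell cycle list (39.1%). A match is a description of the letters and not of binding.

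On the list medians, markers of microglia, endothelium, mural cells and fibroblasts, and red cells were low. Microglial markers had a median of 0.86 TPM, with 7 of 15 at 1 TPM in all libraries, endothelial markers 0.35 TPM (0 of 10), and mural and fibroblast markers 0.53 TPM (3 of 12). Hba-a1, Hba-a2, Hbb-bs and Hbb-bt, the globin genes, had no read, although near-identical copies make their counts uncertain, and Alas2, which makes heme in red cells, was measured at 0.574, 0.627 and 2.58 TPM, at least 2-fold above both others in CTRL 3. Summed over each list the levels were 52.8, 51.6 and 41.6 TPM for microglia, 5.51, 4.84 and 2.12 TPM for endothelium, and 86.0, 79.0 and 51.1 TPM for mural cells and fibroblasts. Cspg4, which oligodendrocyte progenitors also express, was measured at 68.7, 61.8 and 25.2 TPM. It made up most of the last sum in CTRL 1 and CTRL 2, but not in CTRL 3. The defining markers of vessels lay near 0: Pecam1 averaged 0.746 ± 0.174 TPM, Cldn5 0.893 ± 0.723 TPM and Cdh5 0.0606 ± 0.0760 TPM, and Flt1, a VEGF receptor, 0.905 ± 0.560 TPM. Pdgfrl and Rgs5 averaged 9.81 ± 3.59 and 5.94 ± 3.16 TPM. Of the microglial list, the lysosomal gene Cd68 averaged 9.31 ± 1.66 TPM and the complement gene C1qa 3.76 ± 0.412 TPM, while Cx3cr1 and Tmem119, which define microglia, averaged 0.100 ± 0.0912 and 0.0609 ± 0.106 TPM. Ttr, of the choroid plexus, was measured at 1.55, 0.508 and 31.6 TPM, and Foxj1, of ciliated ependymal cells, at 44.4, 30.9 and 34.0 TPM. Dynlrb2, a dynein light chain of cilia, averaged 5.22 ± 1.71 TPM. Ttr was at least 2-fold above both others in CTRL 3, while Foxj1 differed little. Calb2, which Cajal-Retzius cells share with interneurons, averaged 24.8 ± 2.37 TPM and Ndnf was measured at 1.21, 1.27 and 3.15 TPM. Reln and Trp73, of Cajal-Retzius cells, averaged 5.72 ± 1.02 and 1.47 ± 0.0762 TPM.

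Interferon response genes were low in CTRL 1 and CTRL 2 and higher in CTRL 3, with list medians of 2.63, 3.13 and 8.21 TPM. Of 20 with enough reads, 12 lay at least 2-fold above both others in CTRL 3 (background 8.34%) and 0 below. B2m, H2-K1 and Ifitm3 were the highest of the list with means of 463 ± 254, 249 ± 57.5 and 239 ± 43.1 TPM. B2m, the light chain of class I molecules, was measured at 340, 294 and 755 TPM. H2-K1 shares sequence with other class I genes, and its level is uncertain for that reason. Isg15, a ubiquitin-like modifier, was measured at 1.62, 1.20 and 8.21 TPM. Gbp2, an interferon-induced GTPase, was measured at 12.2, 11.1 and 259 normalized counts. Of 16 long noncoding RNAs, 6 also lay above in CTRL 3, against 8.34% of all genes compared. That background mixes gene types. It was higher among genes that do not code for protein, and was not computed for long noncoding RNAs alone. Among them was Malat1, a nuclear RNA, with 1138, 1180 and 2568 TPM. Gas5 and Pantr1 averaged 153 ± 65.7 and 55.1 ± 21.8 TPM, and H19, an imprinted RNA, was level with 40.9, 40.3 and 40.0 TPM. Gas5 hosts small nucleolar RNAs whose reads fall within it.

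**Figure D5:**
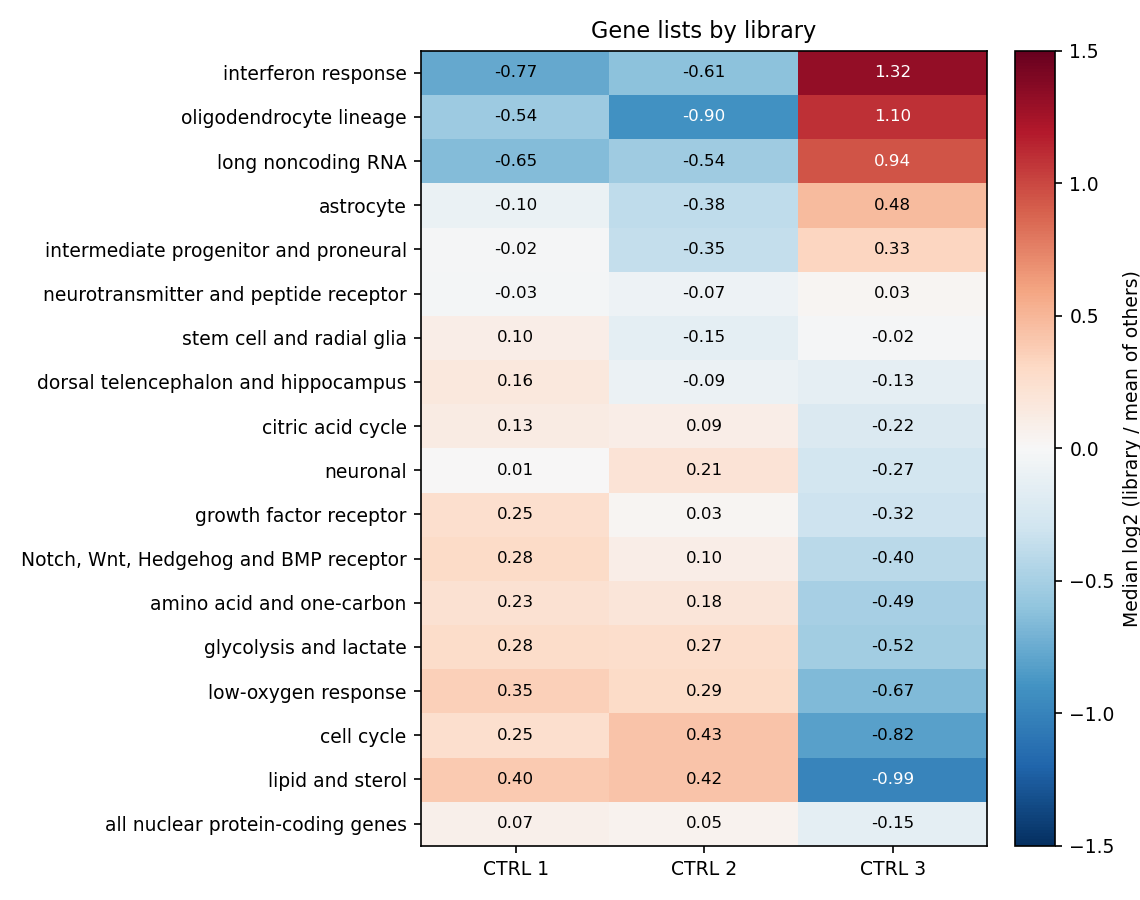
Median over the members of each gene list of the log2 of one CTRL library over the mean of the others, in normalized counts. Lists of microglia, vessel, blood, choroid plexus and Cajal-Retzius cells, of ventral and posterior regions, of sex and of the 7 markers are not drawn. Of the lists drawn, CTRL 3 is highest for interferon response (1.32) and oligodendrocyte lineage (1.10) and lowest for lipid and sterol (-0.99) and cell cycle (-0.82), against -0.15 for all nuclear protein-coding genes.

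The shift of all nuclear protein-coding genes in CTRL 3 was -0.15 (log2), and -0.02 in CPM. Against it the medians of the cell cycle (-0.82), lipid and sterol (-0.99) and low-oxygen (-0.67) lists were lower and those of the interferon (1.32) and oligodendrocyte (1.10) lists higher. All of these kept their sign in CPM and under TMM scaling. The stem cell list, at -0.02, turned to 0.11 in CPM.

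Outside the lists, the genes with the greatest distance of CTRL 3 above the others included genes of the acute phase and inflammation. Lcn2, an iron-sequestering protein of reactive astrocytes, had 0, 0 and 180 normalized counts, and the serum amyloid gene Saa3 0, 2.01 and 307. Cxcl1, a chemokine, had 0, 2.01 and 239. All of them were at the floor of 3 reads or below in CTRL 1 and CTRL 2 and well above it in CTRL 3. On the other side Cd93, a membrane glycoprotein (514, 494 and 49.6 normalized counts), Papln, a matrix protein (1042, 1099 and 109) and Pou3f1, a POU transcription factor (790, 1054 and 102) were low in CTRL 3. Few genes set CTRL 1 above the others, such as Tmem140 with 97.6, 43.3 and 43.5 normalized counts and Isg20, an exonuclease, with 138, 68.4 and 57.6. Below both others in CTRL 1 were Sla, a signalling adaptor, with 16.3, 48.3 and 176, the chemokine Cxcl10 with 8.14, 21.1 and 361, and the protocadherin Pcdhb14 with 24.4, 64.4 and 68.8. Sla and Cxcl10 were highest in CTRL 3. Below both others in CTRL 2 were Eps8l1 with 129, 35.2 and 287, Angptl4, an inhibitor of lipoprotein lipase, with 33.6, 11.1 and 133, and Phkg1, a phosphorylase kinase subunit, with 47.8, 20.1 and 118. These were again highest in CTRL 3. Above both others in CTRL 2, Hcn4, a pacemaker channel, had 43.7, 87.6 and 41.5. Eif3j2 had 40.7, 308 and 32.4, although its near-identical copy Eif3j1 makes that uncertain.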

How the data were processed

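The labels describe NEBNext Ultra libraries, which do not mark strand, sequenced on an Illumina instrument. STAR, DESeq2 and the build mm10 are named without versions in the submitters' processing notes, and no source used here gives the counter or its annotation. For each library the authors deposited a signal per gene, its read count divided by a size factor. All values were whole multiples of their library's smallest value within 0.01 of a read, which gave the reads per library. The authors also deposited a log2 fold change, a Wald score and p-values for a genotype comparison, per the file headers, which were not used here. The values are not raw counts and there is only 1 group, so no count test was run, and the spread between libraries is the median coefficient of variation in place of a count dispersion.

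TPM was computed from the deposited values and union exon lengths of GENCODE release M21 (GRCm38, the assembly of mm10) for 54495 of 54532 gene rows, scaled over all of them. The alternatives were the longest transcript, leaving out mitochondrial genes, leaving out each library, other thresholds, CPM and TMM scaling. Leaving genes under 200 bases out of the scaling was added after seeing the data. A gene was compared between libraries where its mean reached 10 normalized counts, and called apart at 2-fold from both other libraries, on normalized counts. Where no read was seen, the 95% upper limit is 3 reads, for counting error only. The code was tested on simulated data. Python 3.11.15, numpy 2.4.6, pandas 2.3.3 and matplotlib 3.10.9 were used.

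The 27 gene lists hold 585 genes, of which 584 were matched. The members and lists were chosen with earlier results of these data known. Named genes were the 7 markers, the 20 most abundant nuclear protein-coding genes without ribosomal protein genes, the 3 highest of each list, list members under 1 TPM where few, defining markers of other cell types, and for each library and direction up to 5 genes with the largest fold and a mean of at least 50. Members named beyond that rule were chosen after their values were seen. Some genes that the rule names are not reported here, though counts and medians of the lists include them.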

Additional observations from a re-analysis of the deposited data

How the results depend on the processing

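Levels between genes depend on the gene length used. A value counted as moved where it changed by more than its SD between the libraries. With the longest transcript in place of all exons, 8 of 27 list medians and 185 of 584 genes moved. The ratios ran from 0.749 to 2.50. Counted apart from that label, 32 genes were beyond 1.5-fold. Leaving genes under 200 bases out of the scaling moved 0 of the 27 list medians. Leaving out CTRL 3 moved 4 of the 27 list medians, among them that of stem cells and radial glia, from 118 to 96.9 TPM. The median of the intermediate progenitor and proneural list was then 25.1 in place of 40.8 TPM, a change within its SD. Without CTRL 3, 32 genes changed beyond 1.5-fold. The number of genes at 1 TPM in all libraries, 15336 of 54495, ran from 12514 to 15974 over the alternatives. The median coefficient of variation, 19.1%, ran from 5.98 to 21.9% when each library was left out, and was 18.996% under TMM. The size factors of DESeq2 are the deposited scaling itself. The mitochondrial share, 2.36% on the mean, ran from 1.47 to 2.81% when each library was left out.

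Counts of genes apart from both other libraries depend on the filter and the fold, and are given as above and below for CTRL 1, CTRL 2 and CTRL 3. With a mean of at least 50 they were 4 and 8, 2 and 23, and 570 and 583. With no filter and 1 added they were 1505 and 1597, 1271 and 2229, and 5376 and 1728. At 1.5-fold they were 174 and 539, 184 and 720, and 2805 and 2595. At 3-fold they were 8 and 54, 7 and 95, and 517 and 195. Under TMM, CTRL 3 lay above for 1463 and below for 744. Fewer genes tested, or a wider or narrower fold, set these counts by construction. No paired analysis was possible because only 1 group was analysed. No test compares the libraries, and 3 libraries limit the precision of every SD.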

Other observations

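Of 7 genes of the Y chromosome with a mean of at least 10 normalized counts, 5 were at least 2-fold lower in CTRL 2 than in both other libraries. Eif2s3y, a translation factor subunit, had 2393, 1025 and 3355 normalized counts in CTRL 1, 2 and 3, and Ddx3y, an RNA helicase, had 1771, 827 and 2486. Kdm5d, a histone demethylase, had 1321, 612 and 1620, and Uty, a homologue of Kdm6a, had 1028, 427 and 1606. The fifth, Gm29650, a noncoding RNA, had 17.3, 6.04 and 20.2. Over all genes compared, 1.68% lay at least 2-fold below both others in CTRL 2. Xist, of the inactive X chromosome, was at 0.111, 0.042 and 0.0472 TPM, so it was near 0 in every library. Of the other Y genes, Mid1-ps1, a pseudogene, had 138, 124 and 116 normalized counts, and the gene model Gm47283 had 362, 200.3 and 2137, lowest in CTRL 2 but less than 2-fold below CTRL 1. The cause was not tested.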
